A study of Mus musculus with 84 samples.

Results

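The hepatic growth hormone and Igf1 axis was followed in 10 genes, found by symbol in the table of raw counts, namely Ghr, Stat5b, Igf1, Igfals, Socs2, Cish, Igfbp2, Igfbp3, Bcl6 and Cux2. All 10 symbols matched a row of the table, which holds 17695 genes. For comparisons, genes needed a median count above 8 over all mice, which 9 of the 10 genes and 10415 genes in all reached. Cux2 had a median of 2 counts and did not pass. The genes lie on chromosomes 15 (Ghr), 11 (Stat5b and Igfbp3), 10 (Igf1 and Socs2), 17 (Igfals), 9 (Cish), 1 (Igfbp2), 16 (Bcl6) and 5 (Cux2), each as a protein-coding gene.

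Growth hormone from the pituitary binds its receptor Ghr on hepatocytes, which activates the kinase Jak2 and then the transcription factor Stat5b. Stat5b raises transcription of the circulating growth factor Igf1, of its carrier Igfals, and of Socs2 and Cish, inhibitors that feed back on the same signal. Male mice release growth hormone in pulses and female mice more continuously, and this pattern maintains many genes whose hepatic levels differ between the sexes, among them the repressor Bcl6 (higher in males) and the transcription factor Cux2 (higher in females).

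The livers of 84 male B6C3F1 mice were profiled by TempO-Seq, which counts each mRNA through a pair of designed probes that are joined where both sit on it and then sequenced. The mice, 8 weeks old, received for 7 days a control diet or a diet with 1 of 3 organophosphate pesticides (OPPs). These inhibitors of acetylcholinesterase were fenthion (FT) at 2.5, 5, 10 and 20 ppm, methidathion (MT) at 10, 25, 50 and 100 ppm, and parathion (PT) at 20, 40 and 80 ppm. The estimated intakes were 0.375 to 3 mg/Kg-bw/day for FT, 1.5 to 15 for MT and 3 to 12 for PT, and each of the 12 groups held 7 mice. All were males of 1 hybrid strain, and no female liver was measured. The experiment was run in blocks, and every group took 2 mice from block 1, 3 from block 3 and 2 from block 4. A service laboratory (EA) isolated the RNA of 77 mice. The U.S. EPA isolated that of the other 7, of which 2 were control mice, 2 were given FT at 20 ppm, 2 were given MT at 100 ppm and 1 was given MT at 10 ppm. No mouse of a PT group was isolated by EPA. According to the paper, body weight and relative liver weight were significantly lower with PT alone, in the middle and highest of its doses used here. A still higher PT dose was left out of the paper because many mice fell ill or died. Body weight was not in the model, and its part in the changes at PT 80 ppm was not tested.

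Levels are CPM, the count of a gene scaled to the total count of the mouse. Total counts ranged from 6950381 to 15300589 over the mice, and 3 counts, taken as the smallest number measured, correspond to 0.196 to 0.432 CPM. Fold changes and adjusted p-values come from edgeR (quasi-likelihood test) in a model that includes block and isolator, and a gene was called changed at an adjusted p under 0.05 over all genes tested. All groups were compared with the same 7 control mice, so the comparisons share their error. In whole liver, fewer cells of a type and less RNA per cell cannot be told apart.

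1 mouse stood apart, PT 80 ppm replicate 1 (block 1, EA). Its total count was 10877259 and 80% of the genes in the table had a count, within the range of the other 6 mice at that dose (9273235 to 12476604 counts, 77.5% to 81% of genes). It had the lowest Ghr, Igfals and Bcl6 and the highest Igfbp3, Socs2 and Cux2 of all 84 mice. The fold changes and list counts at PT 80 ppm are therefore also given without it.

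The upstream DNA of the axis genes was searched for TTCNNNGAA, a palindrome that is the core of the site Stat5b binds and, being palindromic, reads the same on both strands. RefSeq promoter windows of 300 bases (250 before and 50 after the annotated start, GRCm38.p6) were found for 9 of the 10 genes, 16 windows in all. Of these 9 genes, 3 held the palindrome, against 9.55% of 27025 genes and 8.3% of 32851 windows in the table. It was found in the only window of Cish, in 2 of 3 windows of Igfals and in both windows of Bcl6. None was found in the windows of Ghr, Igf1, Stat5b, Igfbp2, Igfbp3 or Cux2. A match is a description of these letters, and no binding was measured. The windows below are shown because they hold the palindrome (in capitals) in Cish and Bcl6, a pair chosen after its levels were seen to run in opposite directions from mouse to mouse, and in the Igf1 carrier Igfals. The first is chr9:107296409-107296708 (plus strand), the second chr16:23981234-23981533 (minus strand) and the third chr17:24877981-24878280 (plus strand).
Cish: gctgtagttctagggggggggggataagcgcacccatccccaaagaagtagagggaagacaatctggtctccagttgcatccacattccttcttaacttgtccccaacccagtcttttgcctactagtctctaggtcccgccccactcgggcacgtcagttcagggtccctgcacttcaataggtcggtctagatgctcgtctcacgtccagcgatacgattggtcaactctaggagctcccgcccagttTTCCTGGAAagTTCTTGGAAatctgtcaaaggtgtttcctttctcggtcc
Bcl6: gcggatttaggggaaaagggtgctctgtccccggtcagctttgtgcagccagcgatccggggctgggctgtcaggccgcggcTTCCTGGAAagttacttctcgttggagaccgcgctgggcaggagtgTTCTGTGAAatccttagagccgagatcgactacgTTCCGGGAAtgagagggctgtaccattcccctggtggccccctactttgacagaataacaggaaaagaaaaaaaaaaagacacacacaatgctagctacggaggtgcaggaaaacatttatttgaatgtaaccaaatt
Igfals: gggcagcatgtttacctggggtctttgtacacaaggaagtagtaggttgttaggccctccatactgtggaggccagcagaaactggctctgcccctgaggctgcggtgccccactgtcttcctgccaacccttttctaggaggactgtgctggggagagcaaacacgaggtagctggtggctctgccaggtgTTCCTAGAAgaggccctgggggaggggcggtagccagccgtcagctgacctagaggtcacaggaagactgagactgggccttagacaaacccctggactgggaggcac

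In the Cish window the copies began at bases 1 and 12 counted from the annotated start. In this window of Bcl6 they began at bases -168, -122 and -88, and in that of Igfals at base -58.

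**Figure D1:**
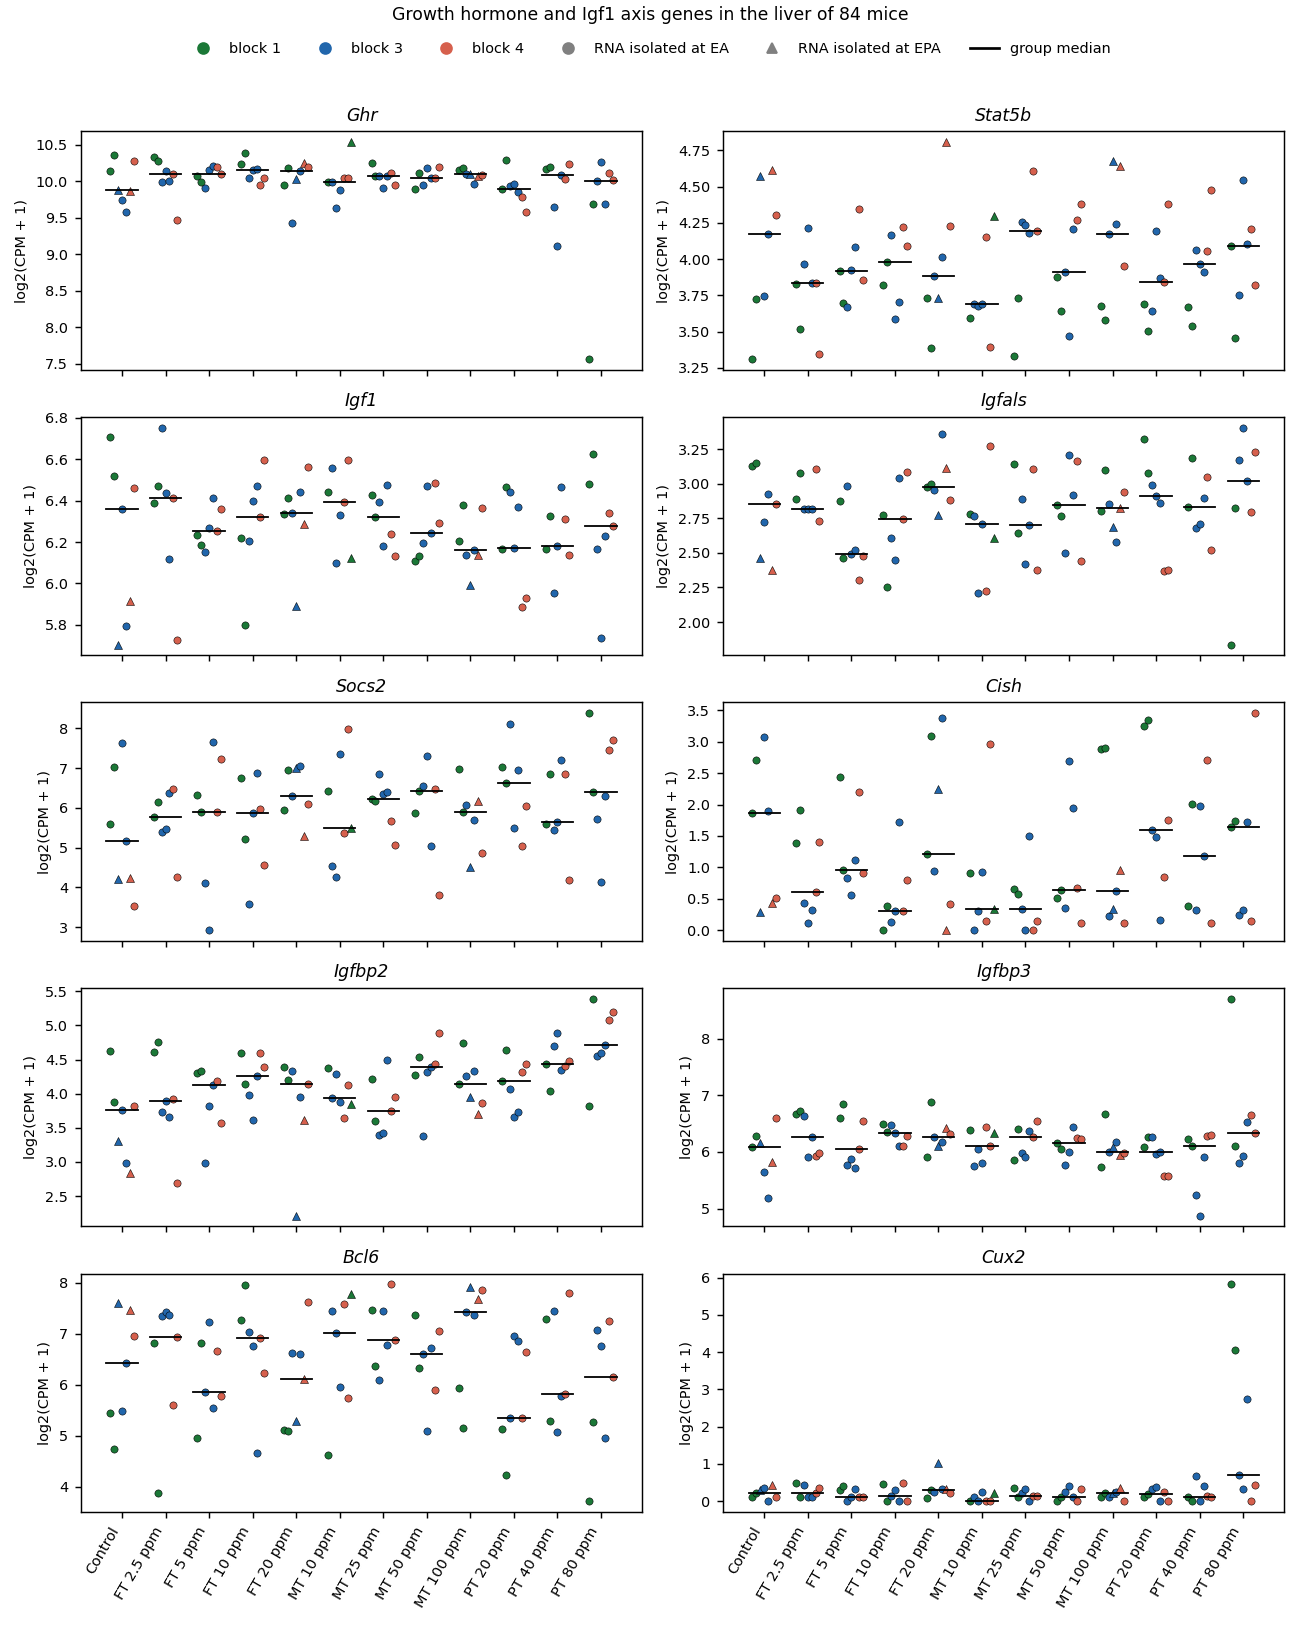
Level of each of the 10 genes in every mouse, as log2(CPM + 1), by group, with 1 point per mouse coloured by block (triangles, RNA isolated at EPA) and the group median as a line. The dosed groups overlap the control group for each gene, and the points farthest from the rest include Igfbp3 at 415.8 CPM, Ghr at 188.2 CPM and Cux2 at 55.5 CPM in PT 80 ppm replicate 1.

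At PT 80 ppm, Igfbp2 and Igfbp3 rose among the 9 genes that could be tested, Igfbp2 by 1.93-fold and Igfbp3 by 1.68-fold. The share called over all genes was 18.6% (9.73% higher and 8.89% lower). Without replicate 1, only Igfbp2 was called, with 12.2% of all genes called. The median log2 fold change of the 9 genes was -0.00, beside 0.01 over all genes tested. Neither the receptor, nor Stat5b, nor Igf1 and its carrier passed the test.

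Ghr, the growth hormone receptor, had 1129, 1305, 939.9, 857.1, 766, 930 and 1236 CPM in control replicates 1 to 7. The PT 80 ppm mice, in the same order, had 188.2, 820.6, 1028, 1224, 824.3, 1107 and 1035 CPM. The first of these is far below every control mouse, and the other 6 lie within the control range. On the log2 scale the change was -0.26 (SE 0.16, adjusted p = 0.286 from edgeR), and -0.06 (adjusted p = 0.805) without replicate 1. In the other 10 dosed groups the medians of Ghr lay between 950.7 (PT 20 ppm) and 1136 CPM (FT 10 ppm). The lowest mouse of those groups had 550.7 CPM (PT 40 ppm) and the highest 1480 CPM (MT 10 ppm).

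Stat5b, the signal transducer that carries the growth hormone signal to the nucleus, had 8.92 to 23.4 CPM in control mice (median 17.1) and 9.96 to 22.4 CPM at PT 80 ppm (median 16). The groups overlapped over nearly their whole range, and the log2 fold change was -0.00 (SE 0.15, adjusted p = 0.995 from edgeR), and -0.05 (adjusted p = 0.89) without replicate 1. With all 7 mice the 95% interval reached from 0.808-fold to 1.23-fold. Medians of the other dosed groups lay between 11.9 (MT 10 ppm) and 17.3 CPM (MT 25 ppm).

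Igf1, which carries most of the growth-promoting action of growth hormone into the circulation, had 103.4, 90.7, 51.2, 81.2, 54.6, 59.4 and 87.2 CPM in control replicates 1 to 7. The mice at PT 80 ppm had 88.3, 97.8, 70.9, 52.3, 73.9, 79.9 and 76.7 CPM. All 7 lay within the control range, including the replicate with low Ghr. The log2 fold change was -0.16 (SE 0.11, adjusted p = 0.355 from edgeR; 95% interval 0.767-fold to 1.05-fold), and -0.18 (adjusted p = 0.369) without replicate 1. Over the 84 mice Igf1 stayed between 51.2 and 106.7 CPM, and the medians of the 12 groups between 70.5 (MT 100 ppm) and 84.2 CPM (FT 2.5 ppm). Igfals, the subunit that holds Igf1 and its binding protein in the circulation, had 4.18 to 7.86 CPM in control mice and 2.57, 6.09, 8.01, 9.58, 7.11, 5.93 and 8.39 CPM at PT 80 ppm, replicate 1 being the lowest. Its log2 fold change was -0.00 (SE 0.18, adjusted p = 0.993 from edgeR), and 0.16 (adjusted p = 0.604) without replicate 1. Medians of Igfals over the 12 groups lay between 4.64 (FT 5 ppm) and 7.11 CPM (PT 80 ppm).

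Socs2, which inhibits the growth hormone receptor, varied widely between mice of 1 group. Control replicates 1 to 7 had 47.1, 130.4, 17.5, 198.9, 34.9, 18 and 10.6 CPM. In PT 80 ppm mice they were 332.4, 84.1, 51.9, 16.6, 77.4, 175 and 209.6 CPM, 2 of them above every control mouse. The log2 fold change of 0.90 (SE 0.59) did not pass (adjusted p = 0.305 from edgeR), nor did 0.56 without replicate 1 (adjusted p = 0.635). Cish, a second inhibitor of the same receptor, was found at few counts, with a median of 8.5 over all mice. It had 2.66, 5.53, 0.225, 7.46, 2.74, 0.356 and 0.426 CPM in control replicates 1 to 7 and 2.12, 2.32, 0.176, 0.252, 2.31, 0.108 and 9.95 CPM at PT 80 ppm. Mice with a level near that of 3 counts and mice above 2 CPM were present in both groups. Its log2 fold change was -0.49 (SE 0.82, adjusted p = 0.745 from edgeR). The 95% interval reached from 0.23-fold to 2.21-fold, so both a fall and a rise of Cish are compatible with these counts. Without replicate 1 the log2 fold change of Cish was -0.36 (adjusted p = 0.852). Over the 12 groups, the median of Socs2 lay between 34.9 (control) and 98.6 CPM (PT 20 ppm) and that of Cish between 0.235 (FT 10 ppm) and 2.66 CPM (control).

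Igfbp2, a binding protein of Igf1 and Igf2 whose hepatic level is known to fall with growth hormone and insulin, had 23.6, 13.7, 8.93, 12.6, 6.91, 6.14 and 13 CPM in control replicates 1 to 7. The mice at PT 80 ppm had 13.2, 40.9, 22.4, 23.3, 25.2, 32.9 and 35.6 CPM. All 7 lay above the control median of 12.6 CPM and 4 above every control mouse, so the groups overlapped. The log2 fold change was 0.95 (SE 0.23, adjusted p = 0.00202 from edgeR; 1.93-fold, 95% interval 1.4 to 2.66). The Igfbp2 of replicate 1 was the lowest of its group, and without this mouse the log2 fold change was 1.10 (adjusted p = 0.000297). Within blocks 1, 3 and 4 the difference of mean log2 CPM (prior count 2) between PT 80 ppm and control mice was 0.28, 1.2 and 1.94, and in block 1 without replicate 1 it was 1.16. Both EPA control mice were low for Igfbp2 (8.93 and 6.14 CPM). With EA mice alone the log2 fold change was 0.93 (adjusted p = 0.00541 from edgeR). Without block 4 the call was lost, at 0.70 (adjusted p = 0.0626). From lowest to highest, the group medians of Igfbp2 were 12.4 (MT 25 ppm), 12.6 (control), 13.8 (FT 2.5 ppm), 14.3 (MT 10 ppm), 16.5 (FT 5 ppm), 16.6 (FT 20 ppm), 16.7 (MT 100 ppm), 17.2 (PT 20 ppm), 18.1 (FT 10 ppm), 20 (MT 50 ppm), 20.6 (PT 40 ppm) and 25.2 CPM (PT 80 ppm). Each of these groups overlapped its neighbours in this order.

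Igfbp3, which forms the circulating complex with Igf1 and Igfals, had 67.3, 76.9, 70, 48.9, 35.3, 55.4 and 95.7 CPM in control replicates 1 to 7. Replicate 1 of PT 80 ppm had 415.8 CPM and the others 67.4, 54.9, 59.5, 91, 99 and 80.1 CPM. These 6 overlapped the control range, with 1 of them above every control mouse. The log2 fold change of 0.74 (SE 0.22, adjusted p = 0.0119 from edgeR) became 0.18 (adjusted p = 0.578) without replicate 1. The call of Igfbp3 thus rested on replicate 1. Over the 12 groups its median lay between 63 (MT 100 ppm) and 80.1 CPM (PT 80 ppm).

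**Figure D2:**
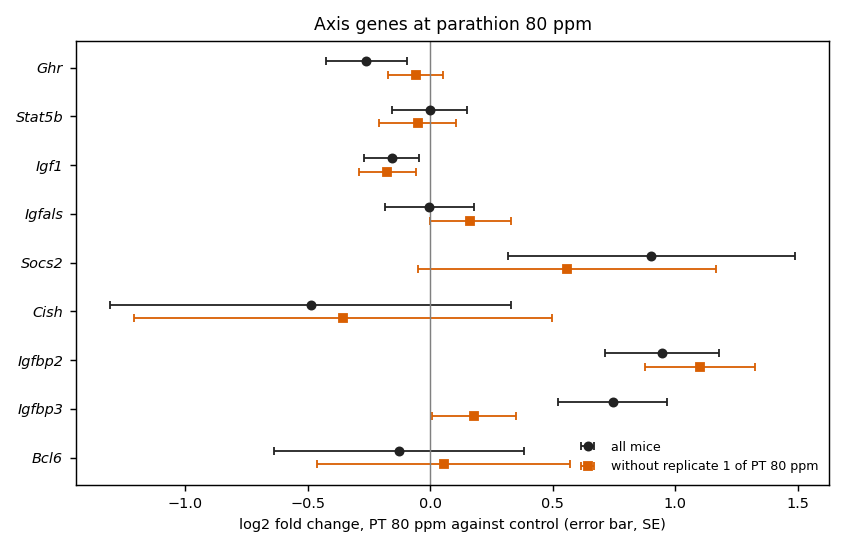
Fold change of the 9 tested axis genes at PT 80 ppm against control on the log2 scale, with all 7 mice and without replicate 1, as points with the SE as error bar. Igfbp2 lies at 0.95 and 1.10, while Igfbp3 moves from 0.74 to 0.18.

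Bcl6, a repressor that binds many of the same sites as Stat5b, had 42.7, 25.7, 193.3, 43.5, 85.2, 174.8 and 123 CPM in control replicates 1 to 7. PT 80 ppm mice had 12.1, 37.4, 133.7, 106.8, 29.8, 150.9 and 70.3 CPM, with only replicate 1 below every control mouse. This gave a log2 fold change of -0.13 (SE 0.51, adjusted p = 0.903 from edgeR), and 0.05 (adjusted p = 0.969) without replicate 1. Over the 12 groups the median of Bcl6 lay between 39.9 (PT 20 ppm) and 172 CPM (MT 100 ppm), with mice from 12.1 to 249.2 CPM.

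Cux2, the female-biased factor of this axis, had 1, 2, 3, 3, 0, 4 and 1 counts in control replicates 1 to 7, at or near the limit of 3 counts. At PT 80 ppm replicates 1 to 7 had 604, 194, 7, 3, 61, 0 and 4 counts, which are 55.5, 15.6, 0.616, 0.252, 5.63, 0 and 0.346 CPM. Cux2 was thus clearly counted in replicates 1, 2 and 5 and close to the control level in the other 4. In all other groups no mouse exceeded 1.04 CPM. Without the limit on low counts, Cux2 had a log2 fold change of 5.82 against control (adjusted p = 1.77e-08 from edgeR), with 10.5% of 17683 genes called. Leaving out each mouse of the group in turn gave 4.69 to 6.07, the lowest without replicate 1 (adjusted p = 7.97e-07). This is an average over mice of very unequal counts. Replicates 1 and 2 were the PT 80 ppm mice of block 1, and no fit of Cux2 left out both. Within blocks 1, 3 and 4 the difference of mean log2 CPM (prior count 2) between PT 80 ppm and control mice was 6.6, 1.91 and -0.29.

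The other 10 dosed groups were each compared with control in the same fit. Of 90 tests of axis genes 0 passed by edgeR, 6 had an unadjusted p under 0.05, and by DESeq2 0 passed and 5 had an unadjusted p under 0.05. Over all genes, the shares called were 0.0096% (FT 2.5 ppm), 0% (FT 5 ppm), 1.57% (FT 10 ppm), 0% (FT 20 ppm), 0% (MT 10 ppm), 0% (MT 25 ppm), 0.0096% (MT 50 ppm), 0.0768% (MT 100 ppm), 0.0096% (PT 20 ppm) and 0% (PT 40 ppm). The 6 tests were those of Igfbp2 at MT 50, MT 100 and PT 40 ppm and of Cish at FT 2.5, FT 10 and MT 25 ppm. Igfbp2 at PT 40 ppm had 15.4 to 28.6 CPM (median 20.6), all 7 mice above the control median and 2 above every control mouse, and a log2 fold change of 0.70 (SE 0.23, adjusted p = 0.408 from edgeR). At MT 50 and MT 100 ppm the values for Igfbp2 were 0.49 and 0.54 (SE 0.23 each). Cish at FT 10 ppm had 0, 0.308, 0.0981, 0.229, 2.28, 0.235 and 0.746 CPM in replicates 1 to 7. All 7 mice were below the control median, and the log2 fold change was -2.55 (SE 0.97, adjusted p = 0.144 from edgeR). The corresponding values were -1.77 at FT 2.5 ppm and -2.77 at MT 25 ppm (SE 0.88 and 0.99).

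Tests over all doses of an OPP at once by edgeR gave 0 of 9 genes for FT (1, Cish, at an unadjusted p under 0.05) and 0 of 9 for MT (0 at an unadjusted p under 0.05), with 0.0768% and 0.0864% of all genes called. For PT, Igfbp2 (adjusted p = 0.00694 from edgeR) and Igfbp3 (adjusted p = 0.00228) passed, with 19.6% of all genes called. Without PT 80 ppm replicate 1, Igfbp2 passed (adjusted p = 0.00112) and Igfbp3 did not (adjusted p = 0.486), with 12% of all genes called.

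Within the PT groups, the median of Igfbp2 was 17.2 CPM at 20 ppm, 20.6 CPM at 40 ppm and 25.2 CPM at 80 ppm, beside 12.6 CPM in control mice. Against PT 20 ppm, the log2 fold change at 80 ppm was 0.59 (SE 0.22, adjusted p = 0.0448 from edgeR), and 0.74 (adjusted p = 0.011) without replicate 1, with 21.9% and 14.8% of all genes called. Leaving out replicate 2, 5, 6 or 7 lost this call, with values from 0.50 to 0.59. Against PT 40 ppm, the Igfbp2 values were 0.24 (adjusted p = 0.486) and 0.39 (adjusted p = 0.269), with 15.6% and 7.96% of all genes called, and neither passed. Igfbp3 was called at PT 80 ppm against both lower doses, at 0.76 (adjusted p = 0.00706) and 0.90 (adjusted p = 0.00226). Without replicate 1 these were 0.20 (adjusted p = 0.449) and 0.34 (adjusted p = 0.215), and neither was called. The remaining 7 genes did not pass against either lower dose.

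OPPs could be compared at matched dose in 2 pairs, FT with MT at 10 ppm (1.5 mg/Kg-bw/day each) and FT with PT at 20 ppm (3 mg/Kg-bw/day each). FT and MT are O,O-dimethyl esters and PT is an O,O-diethyl ester. By edgeR 0 of 9 axis genes differed in either pair and 0 had an unadjusted p under 0.05, which also held with DESeq2, and the share called over all genes was 0% in both pairs. The intervals give the differences that are compatible with these data. For Igf1, FT minus MT was -0.10 on the log2 scale (95% interval -0.32 to 0.12) and FT minus PT 0.18 (95% interval -0.05 to 0.41). For Igfbp2 the differences were 0.14 (95% interval -0.31 to 0.60) and -0.12 (95% interval -0.58 to 0.33). The smallest p was that of Stat5b between FT and MT, with a difference of 0.28 (95% interval -0.02 to 0.58) and an adjusted p = 0.673 over all genes from edgeR. Adjusted by Bonferroni over both pairs alone, for this gene chosen as the smallest, edgeR gave adjusted p = 0.13. The widest interval was that of Cish, -3.50 to 0.65 for FT minus MT.

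RNA isolation site and block were compared in the same fit. Between EPA and EA mice, 5 of 9 axis genes were called, beside 38.7% of all genes. Igf1 fell by 0.49 (SE 0.09, adjusted p = 2.1e-05 from edgeR), with 51.2 to 77.1 CPM (median 62.7) in the 7 EPA mice and 54.6 to 103.4 CPM (median 82.3) in the 21 EA mice of the same groups. Igfbp2 fell by 0.83 (SE 0.20, adjusted p = 0.000529), Igfals by 0.38 (adjusted p = 0.0366) and Cish by 2.0 (adjusted p = 0.0442). Stat5b rose by 0.45 (adjusted p = 0.00163). Ghr, Socs2, Igfbp3 and Bcl6 did not pass. Between blocks 4 of 9 were called, beside 39.9% of all genes. Stat5b was higher by 0.37 in block 3 and 0.51 in block 4 than in block 1 (adjusted p = 8.99e-07 over the blocks, edgeR). Bcl6 was higher by 0.61 and 0.75 (adjusted p = 0.0475), while Igfbp3 was lower in both, at -0.42 and -0.25 (adjusted p = 0.00333), as was Igfbp2 over the blocks, at -0.32 and -0.18 (adjusted p = 0.0447).

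The relations between axis genes from mouse to mouse were examined on log2 CPM from which group, block and isolator had been subtracted, over 84 mice and 11 pairs, with permutation p-values adjusted over the pairs. Socs2 and Cish rose and fell together (r = 0.48, permutation p = 0.00001, adjusted 0.00011; Spearman's rho 0.46, permutation p = 0.00003, adjusted 0.00033). Here 0.00001 is the smallest p that 100000 resamples can give. Igf1 followed Socs2 (r = 0.39, permutation p = 0.00017, adjusted 0.000935; rho 0.37, permutation p = 0.00053, adjusted 0.00146) and ran against Bcl6 (r = -0.35, permutation p = 0.00091, adjusted 0.00334; rho -0.40, permutation p = 0.00021, adjusted 0.00077). Without the 2 mice farthest from the median of the first gene, r was 0.46, 0.31 and -0.37. Within blocks 1, 3 and 4, r was 0.27, 0.46 and 0.59 for Socs2 with Cish, 0.13, 0.45 and 0.41 for Igf1 with Socs2, and -0.54, -0.31 and -0.24 for Igf1 with Bcl6. The sign was kept in each block, but of these pairs only Socs2 with Cish in blocks 3 and 4 (adjusted permutation p = 0.032 and 0.0144) and Igf1 with Socs2 in block 3 (adjusted permutation p = 0.032) passed by r within a block. Igf1 with Bcl6 passed in block 1 by rho (-0.61, adjusted permutation p = 0.0222).

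Igf1 and Igfbp2 passed by r (0.29, permutation p = 0.0073, adjusted 0.0201) and not by rho (0.18, permutation p = 0.0946, adjusted 0.13). Without the 2 farthest mice r was 0.19, so this relation rests on those mice. Igf1 and Igfals passed by both (r = 0.25, permutation p = 0.0211, adjusted 0.0465; rho 0.40, permutation p = 0.00018, adjusted 0.00077), with r of 0.34 without the 2 farthest mice and 0.14, 0.06 and 0.58 within blocks 1, 3 and 4. The other 6 pairs did not pass by r. Ghr, Stat5b and Cish were among the partners of Igf1 in those pairs, with r of 0.09, -0.17 and 0.19, and by rho these 3 had adjusted permutation p = 0.0249, 0.0309 and 0.0309. Chosen after their values were seen and given with no p, Cish with Bcl6 had r = -0.62 (rho -0.66) and Socs2 with Bcl6 -0.46 (rho -0.45). For Cish with Bcl6, r within blocks 1, 3 and 4 was -0.63, -0.75 and -0.52, and for Socs2 with Bcl6 -0.42, -0.58 and -0.41. All genes of a mouse share its library and depth. The share of pairs over all genes with correlations of this size was not computed. Genes outside the 10 reached r of 0.67 to 0.76 with Igf1 or Socs2, so the values above cannot be called particular to the axis.

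**Figure D3:**
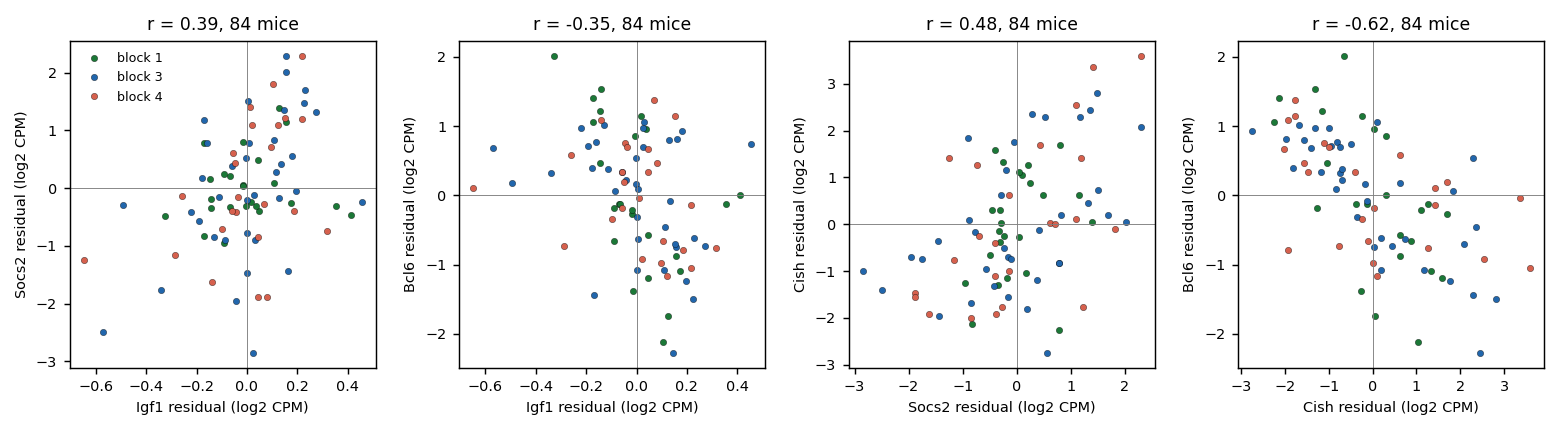
Residual log2 CPM of 1 axis gene against another after group, block and isolator, with 1 point per mouse (84 mice), for Igf1 with Socs2, Igf1 with Bcl6, Socs2 with Cish and Cish with Bcl6. The clouds slope upward at r = 0.39 and 0.48 and downward at r = -0.35 and -0.62, with wide scatter around each.

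By the same residuals, genes most like Igf1 over the 84 mice included Gm8444 (r = 0.71), Ces1b (0.70), Cyc1 (0.69) and Atp5po (0.67). Those most like Socs2 were Onecut1 (r = 0.76), Phf8 (0.73), B4galt1 (0.73), Prpf6 (0.72) and Abhd17b (0.71). These are descriptions, taken from the highest of all genes tested.

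Other genes of growth hormone signalling, 14 of which could be tested, included 2 higher and 1 lower at PT 80 ppm, beside 9.73% and 8.89% of all genes. Without replicate 1 they were 2 and 0, beside 12.2% of all genes called in either direction. Lepr, the leptin receptor, rose by 3.41 (adjusted p = 1.8e-07 from edgeR), and by 1.62 without replicate 1, in which it had 183.4 CPM against 1.67 to 9.86 CPM in the other 6 and 1.49 to 2.22 CPM in control mice. Sh2b1, an adaptor of Jak2, rose by 0.35 (adjusted p = 0.0111), and by 0.38 (adjusted p = 0.0108) without replicate 1, and Ptpn6, a phosphatase of cytokine receptors, fell by 0.30 (adjusted p = 0.0408), a call lost without replicate 1 (adjusted p = 0.118). Socs3 had a log2 fold change of -0.56 (adjusted p = 0.498), and -1.01 (adjusted p = 0.23) without replicate 1. Of 8 further genes of the IGF system, 3 were higher and 1 lower, and without replicate 1 1 was higher and 0 lower. Igfbp1, a binding protein that rises in fasting, had 812.6 CPM in replicate 1 and 8.13 to 34.2 CPM in the other 6, beside 6.77 to 34.4 CPM in control mice. Its log2 fold change was 3.00 (adjusted p = 0.000896) and without replicate 1 0.35 (adjusted p = 0.725). Igfbp4 rose by 0.32, the insulin receptor Insr by 0.24, and the protease Htra1, which cleaves IGF-binding proteins, fell by 0.56, and of these only Igfbp4 was called without replicate 1.

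Genes known to differ between male and female liver were also counted. These lists were chosen with earlier results of these data known, and their link to Cux2, Bcl6 or Stat5b in these mice was not tested. At PT 80 ppm, all 12 female-biased genes that could be tested were higher, with a median log2 fold change of 2.49, beside 9.73% of all genes called higher. Of 19 male-biased genes 12 were lower and 0 higher, with a median of -1.02, beside 8.89% called lower. Without replicate 1 the numbers were 12 and 11, with medians of 2.10 and -0.87, beside 12.2% of all genes called in either direction. The largest rises were those of Fmo2 (4.56), Slco1a4 (3.12), Nipal1 (2.87), Atp6v0d2 (2.81), Cyp39a1 (2.7) and Tox (2.61), which were 3.17, 2.86, 2.59, 3.00, 1.98 and 2.22 without replicate 1. The largest falls were those of Moxd1 (-3.46), Elovl3 (-2.7), Ugt2b38 (-2.20), Mup21 (-1.44), C6 (-1.32) and Cyp4a12a (-1.31), and without replicate 1 they were -3.39, -2.44, -1.94, -1.19, -1.31 and -1.07. Mup21 and Cyp4a12a have near-identical copies that may share reads, and their single values are uncertain.

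The male-biased genes fell unevenly between mice. Elovl3, a fatty acid elongase, had 3.86, 48.2, 391.8, 2661, 41.2, 2107 and 1135 CPM in PT 80 ppm replicates 1 to 7, against 1663 to 5633 CPM in control mice. Its lowest values were in replicates 1, 2 and 5, the mice in which Cux2 was counted, and Fmo2, a flavin monooxygenase, was highest in the same 3 mice at 206.3, 47.6 and 5.63 CPM (1.35 to 4.31 CPM in the others). This overlap was noticed after the values were seen and rests on 7 mice, and no test was made of it. Replicates 1 and 2 were both from block 1. In those 3 mice Ghr was also lowest (188.2, 820.6 and 824.3 CPM), while Igf1 was 88.3, 97.8 and 73.9 CPM, within the range of the other 4 mice for replicate 5 and above it for replicates 1 and 2.

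**Figure D4:**
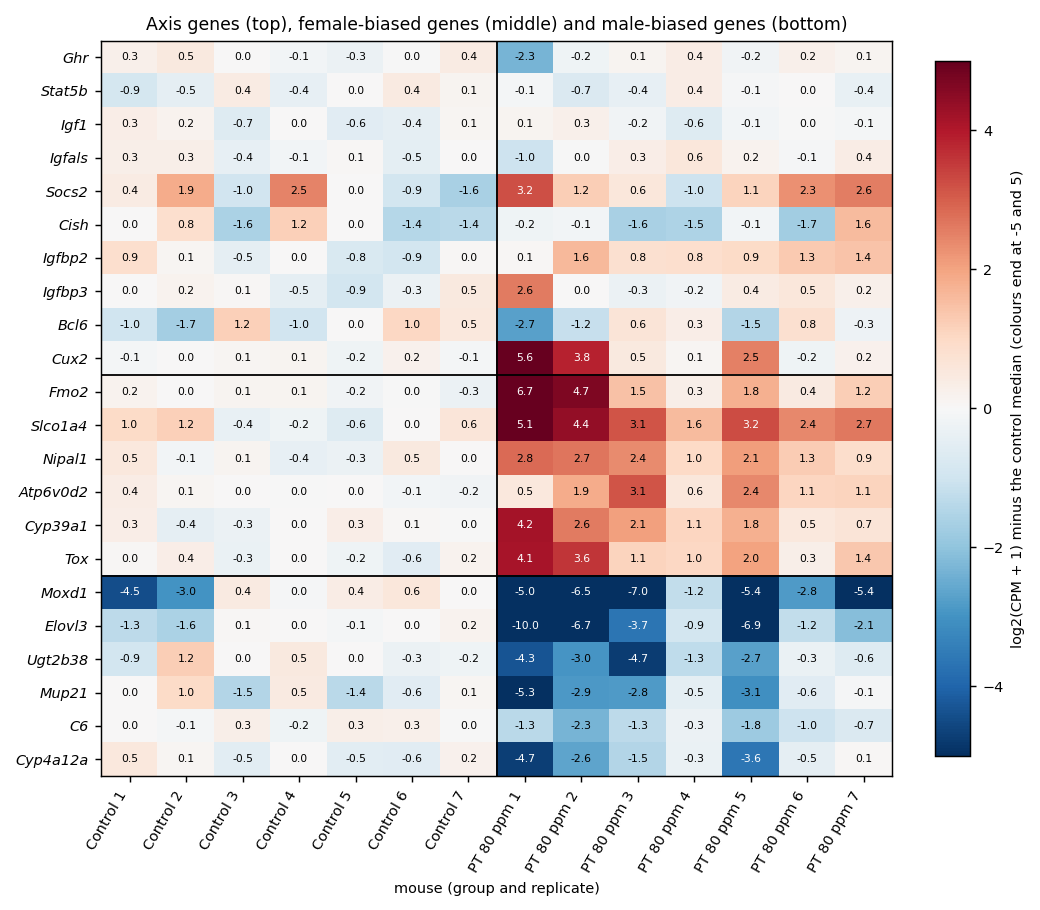
Difference of log2(CPM + 1) from the control median in each control and PT 80 ppm mouse (columns), for the axis genes, 6 female-biased and 6 male-biased genes (rows), with colours ending at -5 and 5. Replicates 1, 2 and 5 of PT 80 ppm show the highest Cux2 and Fmo2 and the lowest Elovl3 (3.86, 48.2 and 41.2 CPM).

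In the other dosed groups the female-biased genes had 0 of 12 called in each by edgeR, with 0 to 3 at an unadjusted p under 0.05 and medians of 0.17 to 0.67, and the male-biased genes had 1 call, C6 at FT 10 ppm (-0.79).

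Lists for other states and cell types were also counted at PT 80 ppm. The shares over all genes were 9.73% called higher and 8.89% lower at PT 80 ppm, and 12.2% in either direction without replicate 1. Of 9 genes of the fasting response 4 were higher at PT 80 ppm and 0 lower, with and without replicate 1, among them Lpin1 (2.03), Ppargc1a (1.10) and Klb (1.09), which were 1.92, 0.76 and 0.99 without replicate 1, and the summed level of the list was 507.4 to 1211 CPM in control mice and 1200 to 3544 CPM at PT 80 ppm. Fgf21, a hormone of the fasted liver, had -0.48 (adjusted p = 0.57 from edgeR), and -0.41 (adjusted p = 0.696) without replicate 1. Of 13 acute phase genes 8 were lower and 1 higher, and 6 and 0 without replicate 1, among them Saa2 (-7.41, and -7.25 without replicate 1) and Saa1 (-5.99 and -5.79), near-identical copies whose separate values are uncertain. Their summed level was 23900 to 120000 CPM in control mice and 19380 to 42920 CPM at PT 80 ppm. Both lists changed in the comparison in which Igfbp2 rose, and their part in its rise was not tested. Lower acute phase levels were also seen in groups without a call of Igfbp2. The median log2 fold change of this list was -1.09 at PT 80 ppm. FT 10 ppm had -1.06, MT 100 ppm -0.914 and FT 2.5 ppm -0.793, with 0 of 13 genes called in each. Only PT 20 ppm had a positive median, 0.198. The median summed level was highest in control mice (69710 CPM), and the highest among dosed groups was 51900 CPM (PT 20 ppm).

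The tissue label was checked on markers. All 9 hepatocyte markers in the table were well counted, with a summed level of 21080 to 42100 CPM in control mice and 26000 to 43440 CPM at PT 80 ppm, where 3 of 9 were called higher (2 without replicate 1). Of 6 Kupffer cell markers tested 4 were lower at PT 80 ppm, and of 8 in the table the summed level was 96 to 174 CPM in control mice, 62.1 to 113.4 CPM in 6 mice at PT 80 ppm and 19.3 CPM in replicate 1. Without replicate 1, 1 of 6 was called lower. Of 3 leukocyte markers tested 1 was lower, and 0 by edgeR without replicate 1, where 2 had an unadjusted p under 0.05. Summed over 7 markers their level was 22.9 to 51.9 CPM in control mice, 14.99 to 40.2 CPM in 6 mice at PT 80 ppm and 9.56 CPM in replicate 1. Also lower was the 1 cholangiocyte marker tested, Spp1, with and without replicate 1. Summed over 6 cholangiocyte markers the level was 57 to 130.5 CPM in control mice, 30.6 to 61.4 CPM in 6 mice at PT 80 ppm and 12.8 CPM in replicate 1. Of the cholangiocyte markers Epcam and Cftr had a median of 0 counts, and Krt19, Krt7 and Sox9 had 4, 3 and 2, beside 740.5 for Spp1. Their sum is therefore mostly the level of Spp1. Endothelial markers had 0 of 8 called by edgeR and by DESeq2, with 1 at an unadjusted p under 0.05 by edgeR and 1 called by limma. Without replicate 1 edgeR called 1 of 8 higher, Kdr (0.25, adjusted p = 0.0281). The endothelial markers had a summed level of 287.1 to 334.8 CPM in control mice and 303.3 to 385.6 CPM at PT 80 ppm. Of 7 stellate cell markers 1 was higher and 1 lower, and 0 were called by edgeR without replicate 1 (3 at an unadjusted p under 0.05). The summed level of 8 in the table was 166.7 to 247.9 CPM in control mice and 169.5 to 246.8 CPM at PT 80 ppm. The part of these cell types in the rise of Igfbp2 was not tested.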

How the data were processed

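TempO-Seq reads of 84 mouse livers were trimmed, aligned with STAR to mm39 and assigned to Ensembl transcripts with Partek E/M by the authors, who deposited estimated counts per gene that were not normalized. Of the values in this deposited table of estimated counts, 17.9% were fractions of a read, since E/M can divide a read among similar genes. The deposited table of adjusted values, entered as a score, holds log2 CPM that the authors corrected for block and RNA isolator, and it served only as an alternative. No replicates were pooled, 0 columns were left unused, and 0 pairs of mice had identical counts. GEO's labels gave group, block and isolator. Replicate numbers follow accession order, and p-values measure the spread between mice. The paper states that mice shared cages and that whole cages were assigned to the diets. Cage was not in the model, so the p-values do not measure the spread between cages.

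Symbols were taken from a GRCm39 annotation (GRCm39 is mm39 under another name), which named 17660 of 17695 identifiers. Counts were rounded and fitted with edgeR 4.0.16 (quasi-likelihood F test, TMM) in R 4.3.3, in 1 model of group, block and isolator over all mice, restricted to 10415 genes (median count above 8). P-values were adjusted by Benjamini-Hochberg over these genes. DESeq2 1.42.0, limma 3.58.1 on log2(CPM + 1), other scalings, filters and covariates, EA mice alone, each block left out, and each PT 80 ppm and control mouse left out in turn were the alternatives. Correlations used residuals of log2 CPM (prior count 2) and 100000 permutations.

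Total counts set the precision, and a floor of 3 counts per mouse covers counting error only, since reads without molecular identifiers are not independent molecules. Counts of all 84 mice were also simulated, with 1 mean per gene and no effect of block or isolator. Changes were put into the PT 80 ppm mice for genes drawn at random from 10415. Between PT 80 ppm and control, edgeR recovered 86 of 100 genes changed by 1 on the log2 scale and 99 of 100 changed by 2, with 11 false calls. DESeq2 recovered 88 and 100 with 14, and limma 87 and 98 with 12. These are shares over random genes without an outlying mouse, and they do not give the recovery of a single axis gene.

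The 10 axis genes and the other lists were chosen with earlier results of these data known. All axis genes were named, with at most 6 called genes of each other list by size of change, the reference genes Saa1, Saa2, Fgf21, Igfbp1, Socs3 and Lepr, and the 5 genes most like Igf1 and Socs2. Some genes that this rule names are not reported here. No list was tested as a set.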

Additional observations from a re-analysis of the deposited data

Results flagged for a closer look

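In groups of 7 mice, the highest or lowest mouse was set against the others by Dixon's test. Of 115 combinations of gene and group checked, 13 passed, where chance gives about 6, or 1 in 20, if levels are normally distributed. The test used CPM without a log, so this expectation does not hold for genes with skewed levels. At PT 80 ppm, replicate 1 had the lowest Ghr (188.2 CPM), the highest Igfbp3 (415.8 CPM) and the highest Cux2 (55.53 CPM) of its group, and replicate 7 the highest Cish (9.951 CPM). Ghr was also far from the rest in MT 10 ppm replicate 7 (1480 CPM), the EPA mouse of that group, and in FT 20 ppm replicate 3 (685.5 CPM, the lowest). Igfbp3 in MT 100 ppm replicate 2 (100.3 CPM), Socs2 in PT 20 ppm replicate 3 (277.5 CPM) and Bcl6 in FT 20 ppm replicate 7 (196.2 CPM) were the highest of their groups. Cish was far above the other mice in FT 10 ppm replicate 5 (2.283 CPM), MT 10 ppm replicate 6 (6.772 CPM) and MT 25 ppm replicate 5 (1.839 CPM). Cux2 in FT 20 ppm replicate 4, an EPA mouse, was at 1.04 CPM, or 10 counts, beside at most 4 counts in control mice. The libraries of EPA mice detected 83.6% to 91% of the genes, beside 76.4% to 81.8% in EA mice.

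The change against control differed between PT 80 ppm and PT 20 ppm for Igfbp3 (by 0.76 on the log2 scale) and Igfbp2 (by 0.594), and between PT 80 ppm and PT 40 ppm for Igfbp3 (by 0.895), each by edgeR's test of the difference. The differences of Igfbp3 were 0.20 and 0.34 without PT 80 ppm replicate 1 and not called, and that of Igfbp2 was 0.74 and called.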

How the results depend on the processing

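Of 27 alternatives, Igfbp2 was called at PT 80 ppm in 26 (0.70 to 1.29, lost without block 4) and Igfbp3 in 23 (-0.09 to 0.98). The 7 other tested axis genes were called in 3 of 188 repeats, Ghr (-0.31) and Socs2 (2.7) with the deposited adjusted values and Socs2 (1.89) without block 3. Those deposited values called 49.4% of all genes at PT 80 ppm, and 12.7% were called without block 3. The 2 axis genes called at PT 80 ppm became 1 with control and PT mice only, without block 1 and without block 4, and 1 to 2 when a mouse was left out (1 without PT 80 ppm replicate 1). Shares over all genes were 9.57%, 7.11% and 19.7% in those settings in turn. They were 12.2% to 20.7% when a mouse was left out. With the deposited adjusted values Igfbp3 turned to -0.0913 (adjusted p = 0.664 from limma). Over the other 10 dosed groups these values gave 34 calls of axis genes in place of 0. They also called 31.1% (FT 20 ppm) to 55.2% (FT 10 ppm) of all genes in those groups, and the cause was not tested. Against PT 20 ppm the 2 calls became 0 without block 1, 1 without block 3, 1 without block 4 and 1 to 2 when a mouse was left out (1 without replicate 1, 2, 5, 6 or 7). Beside these, 10.6%, 14.7% and 21.9% of all genes were called without blocks 1, 3 and 4, and 14.8% to 24.9% when a mouse was left out. Against PT 40 ppm the 1 call became 0 without block 1 and 0 to 1 when a mouse was left out (0 without replicate 1). There 6.04% of all genes were called without block 1 and 7.96% without replicate 1. The 12 female-biased genes higher at PT 80 ppm became 19 of 23 with no filter, 4 of 4 with a median count above 50 and 7 of 12 without block 1, and the 12 male-biased genes lower became 7 without block 1. Of all genes, 10.5% were called in either direction with no filter, 22.6% with a median count above 50 and 7.11% without block 1. The 5 correlated pairs became 0 within block 1, 2 within block 3 and 3 within block 4, each with fewer mice, and Igf1 with Igfals did not pass in EA mice alone (0.23). Scaling by total counts moved the median of all genes at PT 80 ppm to 0.12 on the log2 scale. No paired analysis was possible because the labels number no replicates that groups share. Cish and Cux2 are limited by their low counts.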
